A study of Mus musculus with 12 samples.

Results

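Primordial germ cells (PGCs), the embryonic precursors of eggs and sperm, were compared between fetal ovaries and testes of the mouse at E13.5 (embryonic day) over autosomal genes. The comparison used the 3 female and the 3 male PGC libraries, which are 6 of the 12 RNA sequencing libraries of the series, and 12336 of the 12845 genes measured. Genes were chosen by position: 483 X-linked genes, 5 Y-linked genes and 21 genes without a single autosomal location were left out. All embryos were sired by males carrying an Oct4GFP reporter, a green fluorescent protein under control of a germ cell gene, and the strain is given as Oct4GFPxICR. No group was treated. Female PGCs and male PGCs were the GFP-positive cells sorted from gonads of each sex. The GFP-negative cells of the same stage gave 3 female soma and 3 male soma libraries, which serve here as a reference for sex differences outside the germ line. The labels do not say how many embryos were pooled for a library. The sort read a reporter of Pou5f1 (Oct4), a gene that itself was lower in female PGCs, and what the gate does to the comparison was not tested.

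Germ cells of both sexes reach the gonad with a common, still bipotential programme. In the ovary they leave the mitotic cycle for meiotic prophase, which retinoic acid and bone morphogenetic protein (BMP) signals from the surrounding cells promote and for which STRA8 is the best known gatekeeper. In the testis, the retinoid-degrading enzyme CYP26B1 of the somatic cells, the RNA-binding protein NANOS2 and Nodal signalling accompany a block to meiosis and an arrest in the mitotic cycle.

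Reads assigned to the genes of the table numbered 6454322 to 24379582 in the 6 PGC libraries, lowest in Female PGC 2 and highest in Male PGC 2. Levels are given as CPM, the reads of a gene per 1000000 reads of the table, always in the order of replicates 1, 2 and 3. Differences are female minus male PGC on the log2 scale of the deposited read depth table, with the standard error (SE), and adjusted p-values are from limma with Benjamini-Hochberg adjustment over all genes. That table compresses differences: per log2 unit of reads it moved by 0.305 in genes under 100 mean reads, by 0.608 from 100 to 1000 and by 0.816 at 10000 or more, so the CPM show the larger fold. At an adjusted p of 0.05, 3939 autosomal genes (31.9%) were higher in female PGCs and 4091 (33.2%) were lower, and the median difference of all autosomal genes was 0.003. Past a difference of 1 were 1195 genes (9.69%) upward and 851 (6.9%) downward. These shares are the background against which each gene group below is to be read, since most autosomal genes (65.1%) differed between the sexes.

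**Figure D1:**
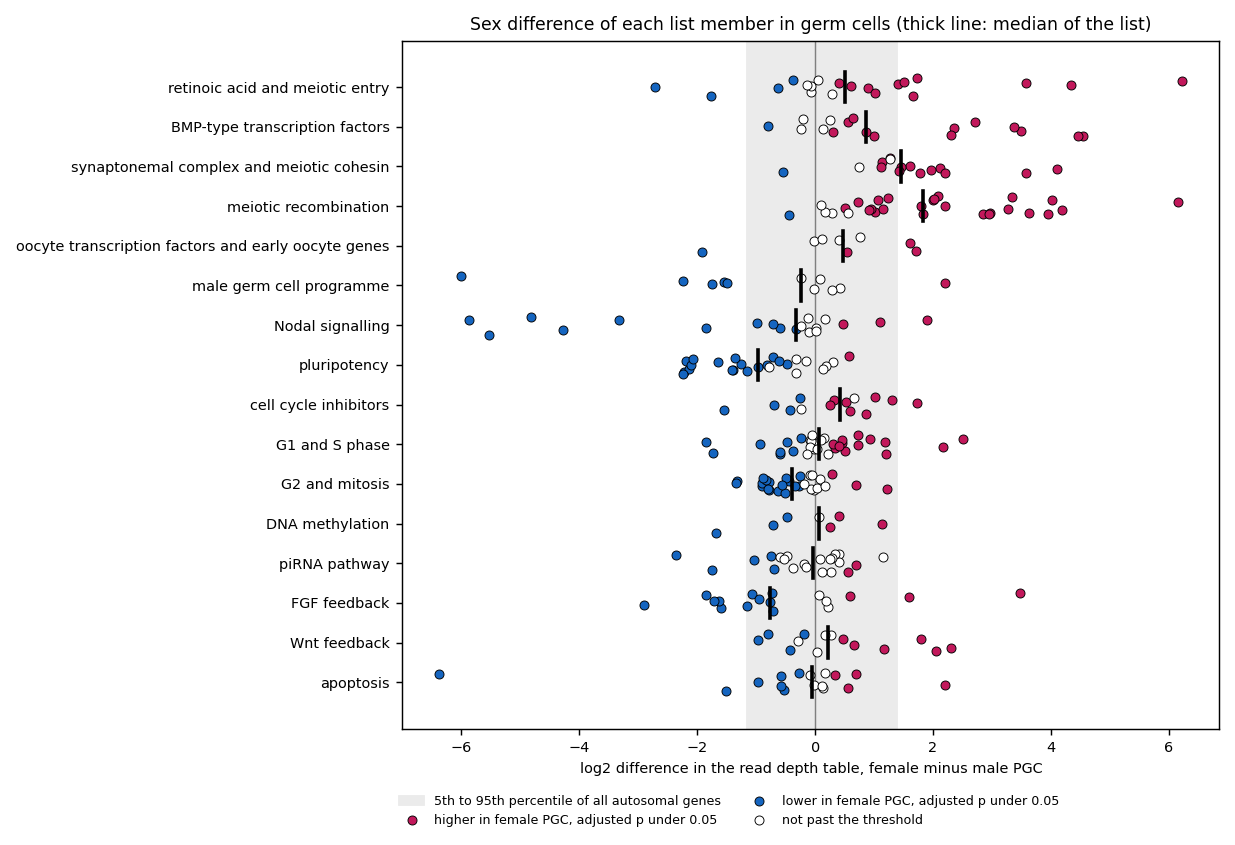
Each point is a gene of the list named on the left, placed by its log2 difference between female and male PGCs in the read depth table; red points were higher and blue points lower in female PGCs at an adjusted p under 0.05, and open points did not pass. The thick line is the list's median and the grey band spans the 5th to 95th percentile of all autosomal genes (-1.16 to 1.39): the median lies to the right of it for meiotic recombination (1.83) and for the synaptonemal complex (1.45), and left of 0 for pluripotency (-0.96).

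Both groups carried germ cell transcripts at high levels. Summed over 6 germ cell markers, female PGCs had 3411, 3234 and 3482 CPM and male PGCs 4727, 4493 and 4768 CPM, against 9.76 to 155 CPM in the 6 soma libraries. Dazl, an RNA-binding protein that licenses germ cells for sexual differentiation, was at 1835, 1736 and 1659 CPM in female and 1523, 1650.0 and 1644 CPM in male PGCs. The lowest female library lay just above the highest male one, and the difference of -0.02 ± 0.49 did not pass (adjusted p = 0.97). Ddx4, a germ granule helicase, likewise did not pass (difference 0.08 ± 0.46, adjusted p = 0.89). The other markers that differed were higher in males: 0 of 6 rose in female PGCs and 3 of 6 fell (Dnd1, Dppa3 and Pou5f1), while Sall4 did not pass (difference -0.78 ± 0.38, adjusted p = 0.088).

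Markers of somatic cells were low in PGCs but not the same in the sexes. The 9 Sertoli cell markers summed to 150.2, 71.4 and 68.4 CPM in male PGCs and to 13.6, 30.1 and 11.6 CPM in female PGCs, against 1254 to 1322 CPM in male soma. Of these markers 8 were lower in female PGCs, with Cst9 at 0 reads in all 3 female libraries. The 7 pregranulosa cell markers summed to 43.8, 65.2 and 42.2 CPM in female and 22.2, 17.0 and 23.0 CPM in male PGCs, against 512 to 597 CPM in female soma, and 4 of them were higher and 1 lower in female PGCs. Sums for fetal Leydig cells (2.95 to 6.89 CPM), endothelium (5.42 to 10.4), red blood cells (2.78 to 9.77) and macrophages (1.58 to 4.34) were small in every PGC library, and stroma ran from 9.15 to 46.2 CPM. In bulk libraries such as these, fewer cells of a type and less RNA per cell cannot be told apart. The part of somatic cells in the differences below was not tested.

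**Figure D2:**
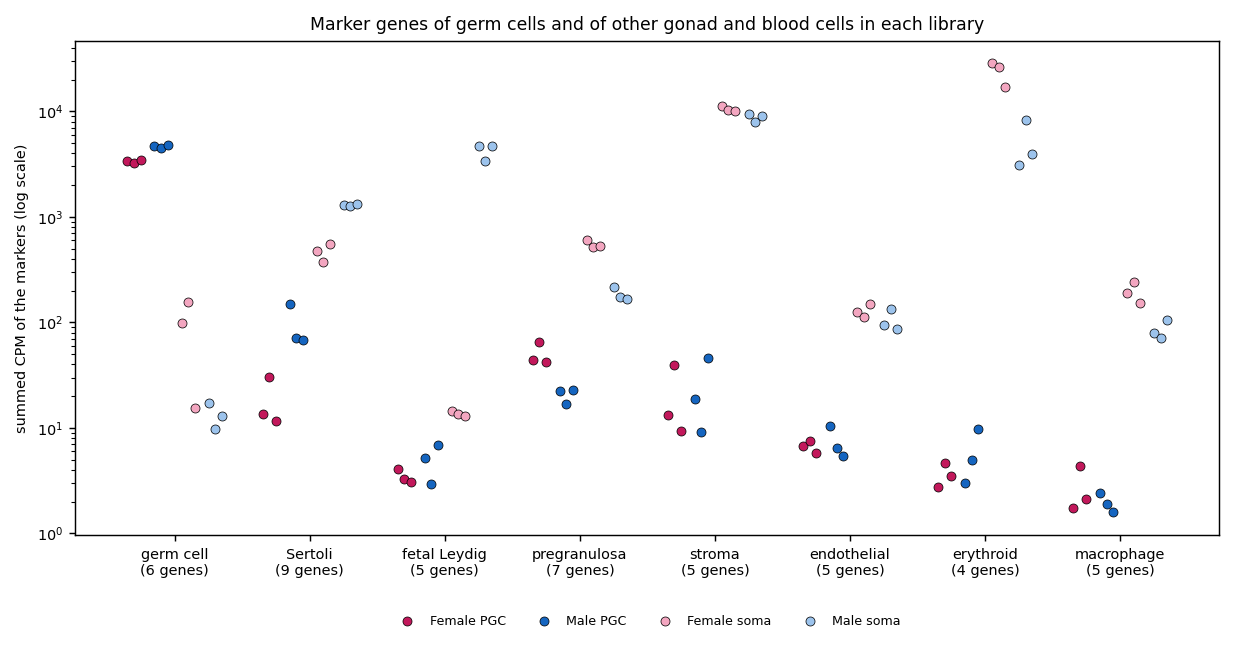
Summed CPM (log scale) of marker genes of germ cells and of other cells of the gonad and blood, 1 point a library and 3 libraries a group. Germ cell markers sit between 3234 and 4768 CPM in the PGC libraries and at most at 155 CPM in soma, and the Sertoli sum is higher in all 3 male PGC libraries (68.4 to 150.2) than in the female ones (11.6 to 30.1).

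The genes that mark the choice between meiosis and arrest separated the groups without overlap, which by CPM was true of 69.5% of autosomal genes (39.9% higher and 29.7% lower in females). Stra8 (chr6:34920163-34939344, plus strand, GRCm38), the retinoic acid target required to start meiosis, was at 626, 616 and 448 CPM in female PGCs and at 4.398, 0.943 and 4.18 CPM in male PGCs. Every female library was thus far above every male one, and the group means differed 178-fold (difference 6.22 ± 0.83, adjusted p = 1.7e-05). Mei1 (chr15:82069996-82126814, plus strand), needed to form the DNA breaks that start recombination, was at 79.5, 85.2 and 38.3 CPM in females and at 0.191, 0 and 0.169 CPM in males, a 563-fold difference of means (6.16 ± 0.58, adjusted p = 7e-07). Its male level rests on 7 reads in all 3 libraries, and Female PGC 3 was the lowest of the female libraries.

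In the opposite direction, Nanos2 (chr7:18987400-18988962, plus strand), the RNA-binding protein that holds male germ cells out of meiosis, was at 0.627, 0.310 and 0.478 CPM in females and at 81.0, 38.5 and 75.1 CPM in males. The means differed 138-fold (difference -6.01 ± 0.34, adjusted p = 7.7e-09). Lefty1 (chr1:180935022-180938400, plus strand), a secreted Nodal antagonist and Nodal target, was at 0.448, 0.620 and 0.478 CPM against 80.5, 140.4 and 92.7 CPM (203-fold by means, difference -5.54 ± 0.23, adjusted p = 7.3e-10). For both genes all 3 female libraries lay under 1 CPM. Exons of Nanos2 overlap a gene on the opposite strand (Gm45058), and no source names the strand setting of the counting, so that reads of such pairs cannot be told apart. Among the genes described below the same holds for Acvr2a, Axin2, Bcl2, Bmpr1a, Ccnd1, Ccne2, Cdk4, Cdk6, Dnd1, Dnmt3a, Fgfr1, Fgfr3, Fst, Furin, Gadd45a, Id4, Lin28a, Mcm7, Msh4, Notum, Otx2, Piwil4, Pou5f1, Psmc3ip, Rarb, Rb1, Rimbp2, Six6os1, Sp9, Spry1, Sycp3, Tdrd5, Tet2 and Zcwpw1, and for Sall4 above.

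**Figure D3:**
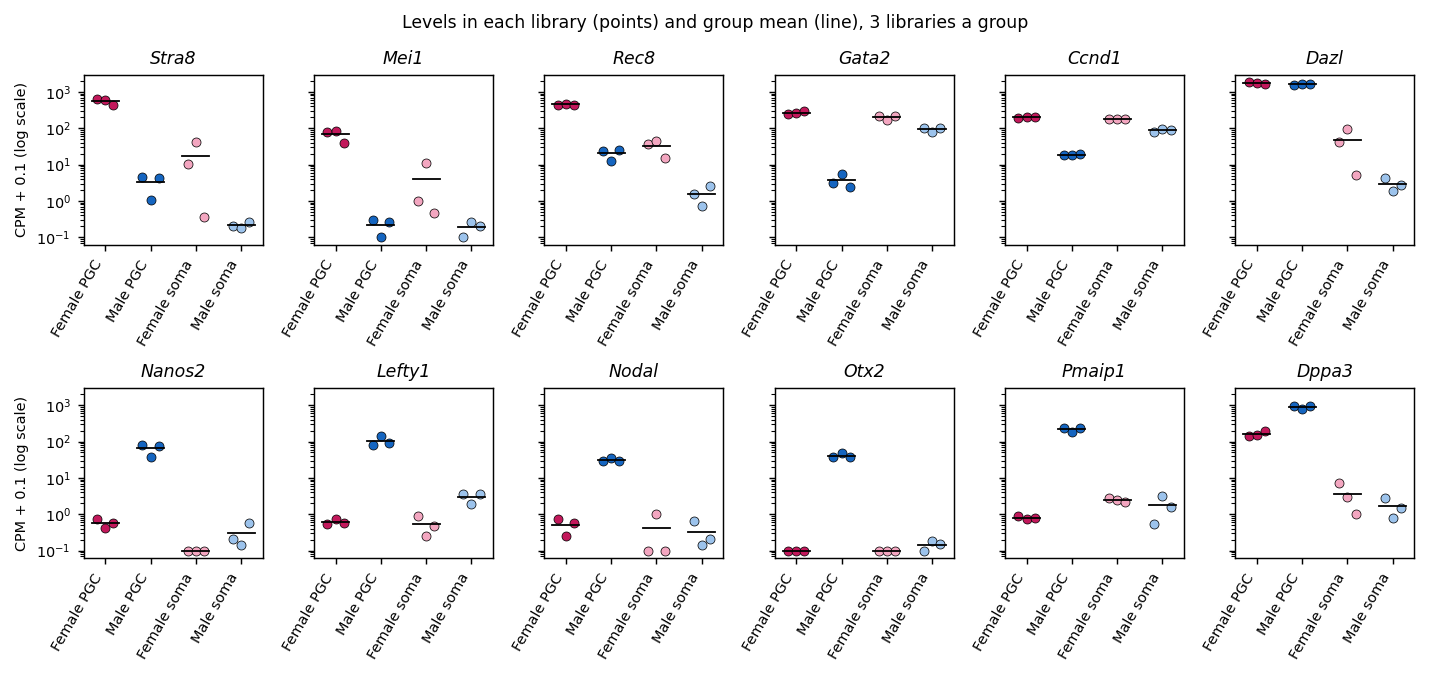
CPM plus 0.1 (log scale) of 12 genes in each of the 12 libraries (points) with the mean of each group (line). Stra8, Mei1, Rec8, Gata2 and Ccnd1 are higher in all 3 female than in all 3 male PGC libraries, Nanos2, Lefty1, Nodal, Otx2, Pmaip1 and Dppa3 are lower, and Dazl is nearly equal between the sexes; Stra8, Mei1 and Dazl are also spread widely among the 3 female soma libraries.

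The 250 bases before the Stra8 start hold the letters AGGTCA, the core that retinoid receptors bind as a repeat, on the gene's strand at 194 and at 38 bases before the start. Both matches are shown because this is the named gene with the largest rise in the read depth table. They are taken from RefSeq's promoter table (GRCm38.p6), and the capitals mark the letters. The stretches are at chr6:34920742-34920771 and chr6:34920898-34920927 (plus strand), within a 5′ UTR exon of a longer annotated Stra8 transcript.
Stra8, distal: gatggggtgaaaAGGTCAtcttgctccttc
Stra8, proximal: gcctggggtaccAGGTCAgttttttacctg
Letters alone are common: searched on both strands, AGGTCA lay in 10.5% of 12036 such windows of autosomal genes (9394 of the 12336 genes have a window) and in 10.9% of the 1234 windows of genes that rose by at least 1.

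Among 20 genes of retinoic acid handling and meiotic entry, 11 were higher in female PGCs, 4 were lower and 5 did not pass, with a median difference of 0.51 (against backgrounds of 31.9% and 33.2%, and 0.003). Meiosin, Cyp26a1 and Cyp26c1 were on the list but not analysed here. Ythdc2 and Meioc (listed as Gm1564), partners in an RNA-binding complex that lets germ cells proceed into meiosis, rose together. Meioc was at 541, 573 and 415 CPM in females and 13.4, 10.2 and 13.4 CPM in males (difference 4.34 ± 0.60, adjusted p = 2.4e-05). Ythdc2 was at 159, 153 and 134 against 30.3, 42.8 and 32.7 CPM (1.50 ± 0.12, adjusted p = 1.3e-07). Rbm46, another RNA-binding protein of early meiosis, was at 143, 147 and 122 against 58.9, 57.5 and 51.8 CPM (0.90 ± 0.12, adjusted p = 1.8e-05). For all 3 genes the lowest female library exceeded the highest male one by more than the spread within either group.

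Genes that carry the retinoid signal were split between the sexes. Of the receptors, Rarb, itself a classic retinoic acid target, was at 5.86, 3.10 and 5.07 CPM in females and 0.191, 0 and 0.339 CPM in males (1.73 ± 0.22, adjusted p = 9.4e-06). Rara fell, from 83.9, 84.4 and 83.1 CPM in males to 47.4, 50.4 and 59.6 CPM in females (-0.63 ± 0.07, adjusted p = 3.8e-06), and Rxrb fell by less (-0.37 ± 0.07, adjusted p = 0.00051). Rarg (-0.08 ± 0.13, adjusted p = 0.64) and Rxra (-0.07 ± 0.12, adjusted p = 0.64) did not pass. Crabp1, which binds retinoic acid in the cell, was at 35.7, 38.3 and 36.9 against 6.45, 6.89 and 5.03 CPM (1.66 ± 0.15, adjusted p = 4e-07). It was higher in all 3 female than in all 3 male libraries.

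Enzymes of the pathway also diverged. Rdh10, which makes retinaldehyde from retinol, rose (37.2, 33.6 and 34.2 against 9.51, 10.8 and 14.6 CPM; 1.02 ± 0.12, adjusted p = 5.6e-06). The next step is carried out by the Aldh1a dehydrogenases, of which Aldh1a1 fell (0.134, 5.42 and 1.72 CPM in female against 34.7, 13.4 and 19.9 CPM in male PGCs; -2.71 ± 0.44, adjusted p = 0.0001). Aldh1a1 is abundant in male soma (659.8, 691 and 714 CPM), and female PGC libraries varied widely among themselves, highest in Female PGC 2. Aldh1a2 was lower too (-1.77 ± 0.30, adjusted p = 0.00014). Cyp26b1, which breaks retinoic acid down, was at 6.18, 7.44 and 7.46 CPM in female and 4.78, 3.16 and 2.77 CPM in male PGCs (0.61 ± 0.17, adjusted p = 0.0056). Soma had the reverse order, with 9.78, 7.67 and 13.3 CPM in females and 312, 396 and 367 CPM in males. With limma's voom on the recovered reads, which called 66.1% of autosomal genes, its difference in PGCs was not past the threshold (adjusted p = 0.056). Crabp2 sat at the threshold (adjusted p = 0.049) and kept its call in 5 of 12 fits that left out 1 library (adjusted p up to 0.2, without Female PGC 3).

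Genes of BMP signalling and its targets were mostly higher in female PGCs. Of 17 genes, 12 were higher in female PGCs, 1 was lower and 4 did not pass, and the median was 0.87. The ID proteins, immediate targets of BMP receptors that block helix-loop-helix factors, were led by Id1 at 88.5, 123 and 103 CPM in females and 1.67, 4.10 and 3.95 CPM in males (32.3-fold by means, 3.49 ± 0.18, adjusted p = 4.1e-09). Id2 (2.36 ± 0.19) and Id3 (2.71 ± 0.14) rose as well (adjusted p = 1.8e-07 and 4.5e-09), while Id4 did not pass (0.25 ± 0.16, adjusted p = 0.18). The homeobox gene Msx1 was at 149, 146 and 153 against 1.43, 2.38 and 2.82 CPM (4.46 ± 0.25, adjusted p = 5.6e-09). Its relative Msx2 was at 41.3, 41.5 and 68.5 against 2.15, 0.451 and 0.847 CPM (3.37 ± 0.22, adjusted p = 2.2e-08). Gata2, a zinc finger transcription factor, was at 248, 257 and 305 CPM in females against 3.01, 5.58 and 2.26 CPM in males (74.6-fold by means, 4.54 ± 0.16, adjusted p = 2.1e-10). Zglp1, a zinc finger factor that promotes the oogenic programme, rose by less, from 14.2, 11.6 and 12.3 CPM in males to 23.8, 27.4 and 29.4 CPM in females (0.65 ± 0.15, adjusted p = 0.0021).

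The signalling chain itself moved in parts. Receptors Bmpr1a (0.56 ± 0.09, adjusted p = 5.9e-05) and Bmpr2 (87.1, 83.0 and 54.3 against 22.5, 26.3 and 30.1 CPM; 1.01 ± 0.12, adjusted p = 6.2e-06) were higher in female PGCs. The receptor Bmpr1b, with 5 reads over the female libraries, was lower (3.25, 0.861 and 2.82 CPM in males; -0.80 ± 0.16, adjusted p = 0.00062). Of the signal-carrying SMADs, Smad9 was at 19.5, 15.8 and 19.98 against 0.382, 0.451 and 0.678 CPM (2.30 ± 0.15, adjusted p = 2.5e-08). Smad1 (-0.20 ± 0.11) and Smad5 (0.14 ± 0.11) did not pass (adjusted p = 0.11 and 0.31). The inhibitory Smad6, a feedback target, rose (0.87 ± 0.10, adjusted p = 5.1e-06), and Smad7 did not pass (-0.24 ± 0.11, adjusted p = 0.081). When the sex difference in soma was subtracted, 12 of the 17 genes were called higher and 2 lower, against 27.2% and 29.4% of autosomal genes. The remainder was 3.68 ± 0.23 for Gata2, 3.29 ± 0.26 for Id1 and 4.20 ± 0.31 for Msx2 (adjusted p = 5.3e-08, 3.5e-07 and 1.7e-07).

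Genes of the synaptonemal complex, the protein zipper that joins paired chromosomes, and of the meiotic cohesin rings rose nearly as a block. Of 15 genes, 12 were higher in female PGCs, 1 was lower and 2 did not pass, with a median of 1.45; Sycp2l was not analysed here. The summed level was 5071, 5133 and 3782 CPM in female and 1161, 1055 and 1218 CPM in male PGCs. The cohesin subunit Rec8 was at 444, 470.5 and 436 CPM in females against 22.9, 12.6 and 25.9 CPM in males (3.58 ± 0.30, adjusted p = 2.3e-07). Rad21l, another subunit, was at 92.0, 84.0 and 34.4 against 4.97, 0.123 and 1.30 CPM (4.11 ± 0.76, adjusted p = 0.00029). These were the largest differences of the list. Smc1b was at 1323, 1274 and 937 against 169, 181 and 219.8 CPM (2.12 ± 0.60, adjusted p = 0.0067), and Stag3 rose by 1.14 ± 0.31 (adjusted p = 0.0049). None of the 4 cohesin genes overlapped between the sexes, and male PGCs were not devoid of them: Stag3 was at 342, 331 and 335 CPM there.

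Of the zipper itself, Sycp3, a protein of the lateral elements, was at 443, 487 and 262 CPM in females and 68.0, 42.0 and 62.1 CPM in males (2.20 ± 0.61, adjusted p = 0.0061). Sycp1, which spans the gap between the lateral elements, was at 364, 406 and 273 against 108, 78.5 and 105 CPM (1.42 ± 0.59, adjusted p = 0.047). The central element genes Syce1 (1.78 ± 0.50), Syce2 (1.11 ± 0.16), Syce3 (1.45 ± 0.19) and Tex12 (1.97 ± 0.46) all rose, with adjusted p from 1.3e-05 to 0.0067. So did the axis genes Hormad1 (1.61 ± 0.59, adjusted p = 0.027) and Hormad2 (1.27 ± 0.24, adjusted p = 0.00038). Trip13, the ATPase that strips HORMAD proteins from the axis, was the 1 gene that fell, from 84.6, 89.1 and 91.6 CPM in males to 59.4, 55.0 and 66.5 CPM in females (-0.54 ± 0.08, adjusted p = 2.9e-05). Sycp2 (256, 263 and 108 against 63.7, 46.5 and 72.3 CPM; adjusted p = 0.052) and Six6os1 (listed as 4930447C04Rik; adjusted p = 0.063) did not pass although their libraries did not overlap.

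The calls of this list depended on the soma libraries, which share the estimate of spread. Female soma 2 carried the most germ cell transcripts of its group (Smc1b at 20.3, 89.9 and 2.54 CPM over the 3 female soma libraries, Dazl at 40.5, 98.2 and 5.21). A fit of the 6 PGC libraries alone called 14 genes higher and 1 lower, with adjusted p = 4e-05 for Sycp1 and 3.1e-05 for Sycp3. Leaving out 1 library at a time gave 10 to 14 genes higher. Sycp1 kept its call in 2 of 12 fits (adjusted p up to 0.11, without Female PGC 2) and Hormad1 in 7 of 12 (up to 0.066, without Female PGC 1). Against the sex difference in soma, 3 genes were called higher and 2 lower, and without Female soma 3 the latter were 6.

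Promoter stretches of 4 of these genes are shown because the letters CACGTG, an E box, recur before their starts. They lay in 8 of the 18 windows of the list (44.4%), against 8.3% of the windows of autosomal genes and 6.16% of those of genes that rose by at least 1. In the recombination genes described next they lay in 1 of 23 windows (4.35%). The 8 windows belong to 7 genes: Six6os1, Hormad1, Stag3, Syce2, Sycp1, Sycp3 and Tex12. CACGTG reads the same on both strands. For Sycp3 the run without annotated exons is given (chr10:88459337-88459568, plus strand), with AGGTCA at 213 bases before the start, GCGGGAA (the opposite strand of TTCCCGC, the letters of E2F sites) at 147, and CACGTG at 64 and 43. The others are Hormad1 (chr3:95559593-95559652, plus strand), Sycp1 (chr3:102936162-102936221, minus strand) and Tex12 (chr9:50561329-50561388, minus strand). All are from RefSeq, build GRCm38.p6, 5′ to 3′ along the gene. Capitals mark the matches named for Sycp3 and, in the shorter stretches, CACGTG alone, so that an AGGTCA in the Hormad1 stretch is left in lower case.
Sycp3: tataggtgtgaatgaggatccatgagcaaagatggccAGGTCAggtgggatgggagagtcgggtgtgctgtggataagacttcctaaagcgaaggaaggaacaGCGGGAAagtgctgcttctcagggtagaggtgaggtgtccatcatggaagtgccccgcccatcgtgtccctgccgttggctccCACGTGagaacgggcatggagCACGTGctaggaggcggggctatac
Hormad1: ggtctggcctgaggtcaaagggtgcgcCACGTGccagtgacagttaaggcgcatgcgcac
Sycp1: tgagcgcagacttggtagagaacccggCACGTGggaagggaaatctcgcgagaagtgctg
Tex12: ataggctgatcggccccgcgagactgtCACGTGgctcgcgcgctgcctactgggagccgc
TTCCCGC was in 6 of the 18 windows of the list (33.3%) and in 6 of 23 windows of the recombination genes described next (26.1%), against 7.07% of all windows. These matches describe letters and were not tested.

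Meiotic recombination genes had the highest median of the lists described here (1.83): 24 of 29 were higher in female PGCs, 1 was lower and 4 did not pass. Rnf212, Shoc1 and Ankrd31 were not analysed here. Their summed level was 4310.0, 4252 and 2765 CPM in female and 960.2, 880.3 and 966 CPM in male PGCs. Genes for making the DNA breaks rose beside Mei1. Iho1 (listed as Ccdc36) was at 87.6, 90.6 and 51.1 against 3.49, 4.06 and 3.56 CPM (2.97 ± 0.24, adjusted p = 1.9e-07) and Mei4 at 27.0, 24.5 and 25.6 against 6.55, 9.88 and 6.44 CPM (1.06 ± 0.20, adjusted p = 0.00031). Top6bl (Gm960), the partner of SPO11, was at 14.9, 17.5 and 8.61 against 0.717, 0.410 and 1.13 CPM (1.80 ± 0.16, adjusted p = 4.1e-07). Spo11, the enzyme that cuts, did not pass (45.9, 37.2 and 41.1 against 18.2, 23.3 and 26.0 CPM; 0.55 ± 0.31, adjusted p = 0.13), although its 3 female libraries exceeded the 3 male ones. Prdm9, the histone methyltransferase that marks where breaks occur, was at 114, 114 and 50.9 CPM in females and 1.20, 1.35 and 2.88 CPM in males (51.3-fold by means, 3.95 ± 0.39, adjusted p = 1e-06). Zcwpw1, a reader of the marks that PRDM9 makes, rose by 1.16 ± 0.20 from a higher male level (191, 156 and 168 CPM; adjusted p = 0.00016).

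Repair and pairing genes followed. The strand exchange protein Dmc1, used in meiosis, was at 169, 187 and 114 against 11.9, 13.2 and 8.19 CPM (2.84 ± 0.29, adjusted p = 1.5e-06). Meiob (47.9, 48.6 and 34.1 against 1.10, 1.44 and 1.52 CPM; 3.278 ± 0.42) and Spata22 (2.94 ± 0.50), which act together on single-stranded DNA, both rose (adjusted p = 1.2e-05 and 0.00014). The crossover factors Msh4 (2.01 ± 0.33), Msh5 (2.20 ± 0.22) and Hfm1 (2.09 ± 0.52) rose (adjusted p = 0.00011, 1.2e-06 and 0.0028), and Mlh3, which acts late, did not pass (0.17 ± 0.10, adjusted p = 0.13). Proteins that tether telomeres to the nuclear envelope rose together. Majin (1700123I01Rik) was at 61.7, 54.2 and 33.9 against 0.526, 0.492 and 0.226 CPM (4.01 ± 0.43). Terb1 (Ccdc79) differed by 3.63 ± 0.50 and Terb2 (4933406J08Rik) by 2.00 ± 0.19 (adjusted p = 2.2e-06, 2.2e-05 and 6e-07). Mnd1, a cofactor of DMC1, fell (-0.45 ± 0.18, adjusted p = 0.04), a call kept in 7 of 12 fits without 1 library (up to 0.15, without Female PGC 3). Its partner Psmc3ip did not pass (0.10 ± 0.14, adjusted p = 0.55). With soma subtracted, 17 of 29 genes were called higher and 1 lower, and 14 to 21 higher when each library was left out.

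M1ap, a protein needed to complete meiotic recombination, was at 408, 440.2 and 248 CPM in females and 12.2, 6.28 and 9.94 CPM in males (38.6-fold by means, 4.19 ± 0.55, adjusted p = 1.3e-05). Its upstream run without annotated exons (chr6:82946672-82946901, plus strand, RefSeq, GRCm38.p6) is shown because it holds CTGAGGGG, the opposite strand of the letters CNCCTCAG reported for STRA8 binding, at 111 bases before the start.
M1ap: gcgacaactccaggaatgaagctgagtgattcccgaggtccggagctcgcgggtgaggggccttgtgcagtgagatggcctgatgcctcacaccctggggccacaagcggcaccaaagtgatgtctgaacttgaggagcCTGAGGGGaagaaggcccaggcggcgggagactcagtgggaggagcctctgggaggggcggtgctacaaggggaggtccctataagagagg
CNCCTCAG lay in 4 of the 23 windows of the recombination list (17.4%: Hfm1, M1ap, Msh5 and Prdm9), against 7.22% of all windows and 9.4% of those of genes that rose by at least 1.

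Female PGC 3 stood apart from its group in the meiotic lists. The median member deviated from the female mean by -0.25 in the recombination list and by -0.24 in the synaptonemal list in this library, and by +0.11 to +0.17 in the other two. In pluripotency genes the order was the reverse: Female PGC 3 deviated by +0.20, Female PGC 1 by -0.12 and Female PGC 2 by -0.08. Without Female PGC 3 the recombination list had 25 genes higher and 0 lower, and the pluripotency list 0 higher and 16 lower, with medians of 2.06 and -1.15. Genes of both lists thus moved in opposite directions within the female group, and how many of its cells had entered meiosis was not tested.

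**Figure D4:**
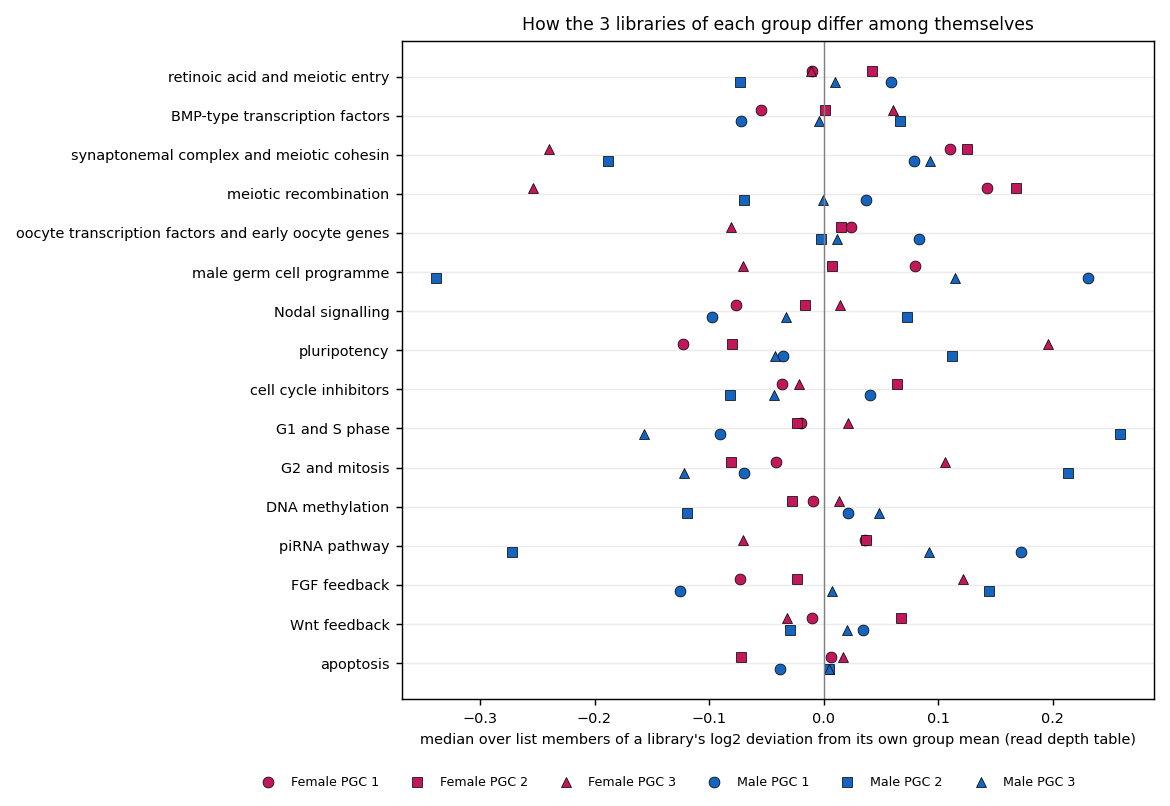
For each gene list, the median over its members of a library's log2 deviation from its own group mean in the read depth table, for the 3 female (red) and 3 male (blue) PGC libraries. Female PGC 3 (red triangles) lies at -0.25 for meiotic recombination and +0.20 for pluripotency, and Male PGC 2 (blue squares) at -0.34 for the male programme, -0.27 for the piRNA pathway and +0.26 for G1 and S phase.

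Genes of the later oocyte programme were mostly not analysed here: 8 of 18 listed genes were in the table, of which 3 were higher, 1 was lower and 4 did not pass. Figla, a transcription factor of early oocytes, was at 13.3, 15.3 and 10.2 CPM in females and 0.574, 0.328 and 0.226 CPM in males (1.71 ± 0.11, adjusted p = 2.2e-08). Ybx2, an RNA-binding protein that stores messenger RNA in oocytes and spermatids, was at 214, 191 and 168 against 36.6, 47.1 and 43.3 CPM (1.61 ± 0.16, adjusted p = 1e-06). Ooep, a maternal-effect gene, went the other way, at 3.49, 3.41 and 4.49 CPM in females and 30.3, 28.8 and 25.7 CPM in males (-1.93 ± 0.12, adjusted p = 2e-08). Taf4b, a transcription cofactor of oocytes, sat at the threshold (0.55 ± 0.23, adjusted p = 0.05) and kept its call in 3 of 12 fits without 1 library (up to 0.14, without Male PGC 2). The fit of PGC libraries alone called 5 higher and 1 lower.

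Cell cycle genes went in both directions. Cyclin D1 (Ccnd1), which drives cells out of G1, was at 194, 200.0 and 199 CPM in females and 17.9, 18.1 and 19.5 CPM in males (10.7-fold by means, 2.50 ± 0.06, adjusted p = 1.5e-11). The libraries of either sex lay within a few CPM of each other. The S phase cyclin Ccne1 was at 90.9, 101 and 96.3 against 22.7, 44.5 and 23.6 CPM (1.20 ± 0.17, adjusted p = 2.2e-05) and Ccne2 at 152, 150.4 and 88.5 against 16.3, 20.2 and 11.8 CPM (2.17 ± 0.21, adjusted p = 1e-06). The kinases that cyclin D binds moved the other way. Cdk4 was at 69.6, 71.3 and 89.8 against 354, 408 and 313 CPM (-1.85 ± 0.10, adjusted p = 3.5e-09) and Cdk6 at 4.79, 4.18 and 3.25 against 21.3, 24.4 and 33.6 CPM (-1.74 ± 0.14, adjusted p = 1.4e-07). In all, 13 of 32 genes of G1 and S phase were higher in female PGCs, 8 were lower and 11 did not pass, with a median of 0.07. Over all autosomal genes 31.9% were higher and 33.2% lower.

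Within that list the replication helicase was split. Mcm5 rose (528, 530.2 and 532 against 294, 411 and 279 CPM; 0.46 ± 0.11, adjusted p = 0.0021). Mcm2 (-0.59 ± 0.11) and Mcm7 (-0.59 ± 0.09) fell (adjusted p = 0.00027 and 7.7e-05). Mcm3 (0.10 ± 0.09) and Mcm4 (0.04 ± 0.10) did not pass (adjusted p = 0.34 and 0.77). Male PGC 2 was the highest male library for the replication genes Cdc6 and Rrm2. Cdc6 was at 60.4, 58.6 and 63.0 CPM in females and 21.8, 40.8 and 23.4 in males, and Rrm2 at 152, 152 and 183 and 44.1, 112 and 51.9. Without Male PGC 2, 15 genes were higher and 6 lower.

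Genes of G2 and mitosis leaned to males: 17 of 28 were lower in female PGCs, 3 were higher and 8 did not pass, with a median of -0.39. Without Male PGC 2, 15 were lower and 4 higher, with a median of -0.24. By CPM 11 were lower and 5 higher without overlap, and scaled to cell number 10 were called lower and 2 higher. Cyclin B1 (Ccnb1), the mitotic cyclin, was at 164, 141 and 258 CPM in females and 501, 575 and 473 CPM in males (-1.34 ± 0.15, adjusted p = 2.4e-06). The mitotic kinases Aurkb (16.7, 18.6 and 27.8 against 54.6, 90.1 and 53.9 CPM; -1.32 ± 0.16), Aurka (-0.91 ± 0.14) and Cdk1 (-0.78 ± 0.12) were lower too (adjusted p = 7.1e-06, 7.4e-05 and 6.7e-05). Kif23, a motor of the spindle midzone, was the clearest exception, at 245, 225 and 217 against 69.1, 94.5 and 54.2 CPM (1.22 ± 0.13, adjusted p = 1.5e-06). Mki67 and Top2a, general markers of cycling cells, did not pass (0.08 ± 0.15 and -0.19 ± 0.09, adjusted p = 0.64 and 0.091), with Mki67 at 365, 331 and 344 against 214, 402 and 284 CPM.

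Of 14 inhibitors of the cycle, 8 were higher in female PGCs, 4 were lower and 2 did not pass. The shares over all autosomal genes were 31.9% and 33.2%. The main inhibitor on the male side was Cdkn1b (p27), at 10.6, 13.9 and 9.18 CPM in females and 43.7, 37.5 and 53.4 CPM in males (-1.54 ± 0.12, adjusted p = 8.3e-08). In soma it was higher in females (0.77, adjusted p = 0.00025). On the female side Cdkn2d (p19) was at 75.3, 81.8 and 75.2 against 17.2, 12.3 and 11.7 CPM (1.72 ± 0.16, adjusted p = 7.6e-07), and Cdkn2c (p18) differed by 0.87 ± 0.17 (adjusted p = 0.00057). All 3 stress-response Gadd45 genes rose, led by Gadd45a (9.26, 9.45 and 10.1 against 1.86, 1.07 and 1.47 CPM; 1.30 ± 0.15, adjusted p = 4e-06). The pocket protein Rb1, which restrains entry into S phase, did not pass (109.9, 96.7 and 101 against 118, 97.5 and 128 CPM; -0.24 ± 0.19, adjusted p = 0.28), and Cdkn2a did not either (0.66 ± 0.42, adjusted p = 0.18). Without Male PGC 1 the list had 2 genes lower in place of 4.

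Among the 11 autosomal genes of the male germ cell programme, Nanos2 had the largest difference. Of the list 5 genes were lower in female PGCs (Nanos2, Nanos3, Piwil4, Cdkn1b and Dnd1), 1 was higher (Sycp3, listed for its later role in spermatocytes) and 5 did not pass (Dazl, Ddx25, Rb1, Stk31 and Tdrd9). Nanos3, which protects migrating germ cells, was at 2.51, 0.620 and 4.88 CPM in females and 33.4, 17.5 and 26.4 CPM in males (-2.23 ± 0.26, adjusted p = 4.1e-06). Dnd1, the partner of NANOS2 in binding RNA, was at 54.6, 64.1 and 115 against 277, 206 and 226 CPM (-1.49 ± 0.22, adjusted p = 4.2e-05). Piwil4 (MIWI2), the nuclear PIWI protein that directs DNA methylation of transposons in fetal male germ cells, was at 9.62, 3.25 and 6.98 against 56.6, 15.1 and 33.8 CPM (-1.76 ± 0.31, adjusted p = 0.00021). Dnmt3l, Cdkn2b and Rhox10 were not analysed here. Male PGC 2 was low for this list, as the values of Nanos2 and Piwil4 show, and its median member deviated from the male mean by -0.34.

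Genes of the piRNA pathway, the small RNA defence against transposons, had few calls in the fit of all 12 libraries. Of 22 genes 2 were higher in female PGCs (Mybl1 and Tdrd7), 5 were lower (Tdrd5, Piwil4, Tdrd12, Exd1 and Piwil1) and 15 did not pass. Tdrd5 had the largest fall, with 79.4, 72.3 and 78.4 CPM in females and 568, 370.1 and 535 CPM in males (-2.37 ± 0.23, adjusted p = 1e-06); it encodes a Tudor protein of germ granules. Piwil2 (MILI), the main cytoplasmic PIWI protein at this age, did not pass (371, 356 and 356 against 446, 264 and 430.0 CPM; -0.15 ± 0.38, adjusted p = 0.75). The SEs take in the spread of the female soma libraries, which differed in germ cell transcripts. With voom 7 were higher and 8 lower, near the shares over all autosomal genes (32.5% and 33.6%). By CPM 15 of 22 did not overlap (9 higher and 6 lower). This too was near the autosomal shares of 39.9% higher and 29.7% lower. The PGC libraries alone gave 8 genes higher and 7 lower, among them Gpat2 (difference 1.16, adjusted p = 3.1e-05; 554, 549 and 411 against 194, 158 and 174 CPM). Without Male PGC 2, 8 genes were lower.

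Of 7 genes of DNA methylation, 3 were higher and 3 lower in female PGCs by read depth, against 31.9% and 33.2% of autosomal genes. Scaled to cell number, 1 was called higher and 2 lower. Among the read depth calls, maintenance and new methylation were on opposite sides. Dnmt1 (742, 726 and 774 against 501, 611 and 519.8 CPM; 0.26 ± 0.06, adjusted p = 0.003), which copies methylation at replication, and its partner Uhrf1 (0.41 ± 0.09, adjusted p = 0.0018) were higher in female PGCs. Dnmt3a (105, 96.2 and 102 against 230.3, 121 and 189 CPM; -0.72 ± 0.13, adjusted p = 0.0003) and Dnmt3b (-0.48 ± 0.13, adjusted p = 0.0051), which lay down new methylation, were lower. Of the TET oxidases, Tet1 was at 92.2, 85.2 and 115 CPM in females and 290.5, 414 and 412 CPM in males (-1.67 ± 0.13, adjusted p = 9.5e-08). Tet3 was higher in females (36.5, 33.5 and 26.7 against 13.3, 6.52 and 10.2 CPM; 1.13 ± 0.15, adjusted p = 1.6e-05) and Tet2 did not pass (0.06 ± 0.14, adjusted p = 0.74).

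The Nodal ligand, its coreceptor Tdgf1 and the targets Lefty1 and Lefty2 were present in male PGCs and near 0 in female ones. Nodal, the ligand (chr10:61417972-61425338, plus strand), was at 0.627, 0.155 and 0.478 CPM in females and 29.7, 34.3 and 29.98 CPM in males (74.7-fold by means, -3.32 ± 0.27, adjusted p = 1.6e-07). Its coreceptor Tdgf1 (Cripto) had 2 reads in female PGCs and 9.32, 15.4 and 9.54 CPM in males, a pooled ratio of 230.5 (95% counting interval 63.6 to 1907; -1.84 ± 0.11, adjusted p = 1.5e-08). The antagonist and target Lefty2 was at 0.716, 0.620 and 0.191 CPM in females and 116, 182 and 129.5 CPM in males (-5.87 ± 0.26, adjusted p = 1.1e-09). Lefty2 was also detected in male soma (46.1, 28.9 and 44.6 CPM), whereas Lefty1 was at 3.50, 1.85 and 3.53 CPM there.

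Other members placed this in context. Among intracellular effectors Smad3 (15.1, 14.9 and 21.6 against 35.04, 38.6 and 43.1 CPM; -0.98 ± 0.11) and Smad4 (-0.71 ± 0.08) were lower in female PGCs (adjusted p = 2.5e-06 and 4.5e-06). Smad2 (-0.11 ± 0.11) and the nuclear partner Foxh1 (0.02 ± 0.25) did not pass (adjusted p = 0.37 and 0.95). The type I receptor Acvr1b fell (-0.60 ± 0.09, adjusted p = 4.1e-05), the type II receptor Acvr2a rose (0.48 ± 0.09, adjusted p = 0.00028) and Acvr2b did not pass (-0.10 ± 0.11, adjusted p = 0.46). The convertases that cut the Nodal precursor went against the ligand. Pcsk6 (PACE4) was at 52.0, 54.1 and 60.4 against 8.17, 10.1 and 6.55 CPM (1.90 ± 0.10, adjusted p = 3.6e-09) and Furin rose by 1.10 ± 0.11 (adjusted p = 8e-07). Of the 19 genes, 10 were lower, 3 were higher and 6 did not pass, with a median of -0.33. The activin subunits Inhba (-0.25 ± 0.21, adjusted p = 0.32) and Inhbb (0.16 ± 0.15, adjusted p = 0.36) and the antagonist Fst (0.01 ± 0.27, adjusted p = 0.99) did not pass. With soma subtracted 12 were called lower and 4 higher.

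Otx2 (chr14:48657677-48673819, minus strand), a homeobox gene of early epiblast and forebrain, had 0 reads in each library of female PGCs and 36.8, 47.1 and 36.8 CPM in males. Its level was at least 526-fold lower in females, taking 3 reads over the group as the floor (-4.82 ± 0.12, adjusted p = 1.5e-11). Hesx1, a homeobox gene of the same anterior programme, was at 0.269, 0 and 0 against 42.9, 37.0 and 46.9 CPM (-4.49 ± 0.26, adjusted p = 8.8e-09).

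Most pluripotency genes were lower in female PGCs. Of 25 genes, 17 were lower, 1 (Tfap2c) was higher and 7 did not pass, with a median of -0.96, and their summed level was 2025, 2047 and 2770.0 CPM in females and 5232, 5277 and 5255 CPM in males. Nanog, at the centre of the network, was at 12.3, 13.48 and 23.5 CPM in females and 94.3, 110.5 and 95.9 CPM in males (-2.23 ± 0.29, adjusted p = 1.2e-05). Pou5f1, whose reporter was used for sorting, was at 238, 248 and 334 against 782, 754 and 739.7 CPM (-1.40 ± 0.31, adjusted p = 0.0011). Sox2, its partner on DNA, did not pass (118, 147 and 169 against 164, 182 and 164 CPM; -0.33 ± 0.51, adjusted p = 0.6). The maternal-type factor Dppa3 (Stella) was at 143, 155 and 192 against 951, 804 and 919 CPM (-2.23 ± 0.35, adjusted p = 6.7e-05). Dppa4 (-2.14 ± 0.38, adjusted p = 0.00021) and Utf1 (75.4, 89.1 and 145 against 489.7, 525 and 455 CPM; -2.07 ± 0.29, adjusted p = 2.8e-05) were lower too.

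The germ cell specification factors were lower as well. Prdm1 (BLIMP1) was at 43.0, 40.6 and 61.8 against 105, 128 and 127 CPM (-1.16 ± 0.14, adjusted p = 7.8e-06) and Prdm14 at 12.8, 14.4 and 16.4 against 39.4, 58.8 and 44.4 CPM (-1.41 ± 0.25, adjusted p = 0.00025). Tfap2c, which acts with them, was the exception, at 48.4, 38.7 and 73.6 against 21.2, 40.3 and 24.7 CPM (0.58 ± 0.24, adjusted p = 0.047). Its groups overlapped, and the call was kept in 6 of 12 fits without 1 library (up to 0.2, without Female PGC 3). Lin28a, an RNA-binding protein of stem cells, did not pass (349, 304 and 423 against 396, 318 and 382 CPM; -0.15 ± 0.21, adjusted p = 0.55). Against the sex difference in soma, 22 of 25 were called lower and 0 higher, compared with 29.4% and 27.2% of autosomal genes. The summed level of the list was also higher in female soma (421.8, 349.6 and 357.9 CPM) than in male soma (204.6, 229.1 and 245.4 CPM). Dazl, which did not pass in PGCs, was itself called lower after subtraction in 12 of 12 fits without 1 library. The part of germ cells left in the soma gate was not tested. Female PGC 3 was the highest female library for Nanog, Pou5f1, Dppa3, Utf1, Prdm1 and Prdm14.

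Genes of FGF reception and feedback were mostly lower in female PGCs. Of 17 such genes, 11 were lower, 3 were higher and 3 did not pass, with a median of -0.77. The immediate early gene Fos went the other way, called higher in female PGCs in 12 of 12 fits without 1 library. The ETS factor Etv1 was at 1.79, 1.86 and 1.05 CPM in females and 27.2, 41.9 and 44.3 CPM in males (24.1-fold by means, -2.89 ± 0.15, adjusted p = 3e-09). Etv5, needed later for spermatogonial stem cells, was at 75.7, 88.3 and 106 against 286, 373 and 334 CPM (-1.63 ± 0.11, adjusted p = 3.9e-08). The phosphatases Dusp4 (8.77, 13.3 and 22.0 against 53.9, 98.0 and 68.3 CPM; -1.84 ± 0.21) and Dusp6 (-1.59 ± 0.14), which turn off ERK, were lower (adjusted p = 3.1e-06 and 3.1e-07), as were Spry1, Spry2 and Spry4 (differences -0.71, -0.95 and -0.74).

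The FGF receptors themselves were exchanged. Fgfr3 was at 141, 131 and 139 CPM in females and 3.78, 7.22 and 3.73 CPM in males (27.9-fold by means, 3.47 ± 0.16, adjusted p = 1.8e-09). Fgfr1 rose by 0.59 ± 0.11 (adjusted p = 0.00025), and Fgfr2 was at 14.7, 20.4 and 23.6 against 72.2, 106 and 82.8 CPM (-1.72 ± 0.13, adjusted p = 8.1e-08). Fgf9, a testis ligand listed as a Sertoli marker, did not pass in PGCs (0.21 ± 0.18, adjusted p = 0.32). Fgf2 and Fgf4 were not analysed here.

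Of 14 genes of Wnt signalling and its targets, 6 were higher, 4 were lower and 4 did not pass, with a median of 0.21. The shares over all autosomal genes were 31.9% higher and 33.2% lower. Axin2, the standard readout of canonical Wnt signalling, was at 142, 123 and 138 CPM in females and 41.7, 37.4 and 49.2 CPM in males (1.16 ± 0.12, adjusted p = 1.2e-06). The feedback inhibitors Nkd1 (65.3, 67.4 and 52.1 against 6.55, 6.73 and 4.63 CPM; 2.31 ± 0.13) and Notum (51.1, 42.3 and 52.3 against 6.17, 10.8 and 5.82 CPM; 1.80 ± 0.15) were higher too (adjusted p = 6.9e-09 and 1.7e-07). Wnt4, an ovarian ligand of somatic cells, was at 6.80, 11.2 and 6.597 CPM in female and 0.526, 0.820 and 0.734 in male PGCs (2.05 ± 0.18, adjusted p = 3.7e-07), against 187, 131 and 205 CPM in female soma. It moved with the pregranulosa sum, of which it is a member. Rspo1, the ligand that amplifies Wnt signals in the ovary, was lower in female than in male PGCs (4.65, 8.83 and 5.93 against 17.7, 12.6 and 18.8 CPM; -0.98 ± 0.18, adjusted p = 0.00026), the reverse of soma (1.49, adjusted p = 3.5e-05).

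The largest fall of any named autosomal gene in the read depth table was that of an apoptosis gene. Pmaip1 (NOXA), a p53 target that promotes cell death, was at 0.806, 0.620 and 0.669 CPM in females and 230.2, 184 and 230.0 CPM in males (307-fold by means, -6.37 ± 0.28, adjusted p = 1.1e-09). Trp53, which encodes p53, was at 41.6, 37.0 and 73.0 against 138, 228 and 156 CPM (-1.52 ± 0.17, adjusted p = 2.8e-06). The p53 target Bax was at 73.2, 70.8 and 86.9 against 147, 188 and 157 CPM (-0.97 ± 0.09, adjusted p = 4.4e-07). Another p53 target, Bbc3 (PUMA), was higher in females (8.95, 7.90 and 10.5 against 3.01, 3.24 and 3.22 CPM; 0.70 ± 0.13, adjusted p = 0.00024). So was Bcl2, which protects cells from death (7.03, 10.4 and 6.597 against 0.478, 0.328 and 0.395 CPM; 2.21 ± 0.15, adjusted p = 2.9e-08). Over the 16 autosomal genes of the apoptosis list 7 were lower, 4 were higher and 5 did not pass, with a median of -0.05. The shares over all autosomal genes were 33.2% lower and 31.9% higher. Bik and Trp63 were not analysed here.

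The 12 largest rises that passed in both deposited tables without overlap of libraries were Stra8, Mei1, Cdx2, Gata2, Dlx3, H2-K1, Msx1, Phlda2, Dmrtc2, M1ap, Rad21l and Zfp541. Beside meiotic genes they include homeobox genes of the embryo and trophoblast. Cdx2 (chr5:147300805-147307270, minus strand) was at 55.9, 41.7 and 71.4 CPM in females and 0.191, 0.164 and 0 CPM in males (4.88 ± 0.39, adjusted p = 1.4e-07). Dlx3 was at 41.7, 41.2 and 69.1 against 0.526, 0.164 and 0.226 CPM (4.49 ± 0.29, adjusted p = 2.1e-08). Phlda2, an imprinted gene that limits placental growth, was at 49.3, 48.6 and 93.5 against 0.717, 0.779 and 0.508 CPM (4.34 ± 0.22, adjusted p = 2.5e-09). H2-K1 belongs to the classical class I histocompatibility genes and was at 168, 188 and 105 against 1.82, 2.05 and 1.75 CPM (4.47 ± 0.26, adjusted p = 8.6e-09). Its near-identical relatives can share reads, so that the value is uncertain for this gene alone. Dmrtc2 (132, 152 and 80.8 against 3.97, 1.40 and 2.26 CPM; 4.26 ± 0.45) and Zfp541 (119, 135 and 84.9 against 4.88, 1.02 and 2.88 CPM; 4.03 ± 0.51), regulators of meiotic prophase, also rose (adjusted p = 1.7e-06 and 1.1e-05). Cdx2, Dlx3 and Phlda2 were highest in Female PGC 3, the library with the lowest medians of the meiotic lists.

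Among the 12 largest falls were Pmaip1, Nanos2, Lefty2, Lefty1, Egr4, Otx2, Amh, Hesx1, Fbxo41, Krt17 and Rimbp2. Egr4, an immediate early transcription factor, was at 1.70, 1.08 and 1.05 CPM in females and 113, 58.0 and 90.6 CPM in males (-5.23 ± 0.32, adjusted p = 1.3e-08). Amh, the Sertoli cell hormone, was at 0.448, 0.465 and 0.0956 CPM in female PGCs and 67.6, 30.6 and 27.7 CPM in male PGCs. In male soma it was at 479, 385 and 446 CPM. It moved with the Sertoli sum given above, of which it is a member. Krt17 (0.0895, 0 and 0.191 against 28.5, 28.5 and 37.8 CPM; -4.05 ± 0.18) is an epithelial keratin. It, Fbxo41 (1.79, 3.10 and 1.82 against 128, 79.1 and 127 CPM; -4.34 ± 0.31) and Rimbp2 (4.25, 2.48 and 4.59 against 101, 116 and 136 CPM; -3.92 ± 0.70) were lower too (adjusted p = 1.1e-09, 5.9e-08 and 0.00022).

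Scaled to cell number, the 2 kinds of PGC were close by their library medians. The median over autosomal genes was 6.07, 5.82 and 5.93 in female and 5.92, 5.85 and 5.84 in male libraries, a difference of 0.07 ± 0.08 (1.05-fold). The exact two-sided permutation test gave p = 0.6, where 3 against 3 libraries cannot go below 0.1. On this scale 2906 autosomal genes (23.6%) were higher and 2229 (18.1%) were lower in female PGCs. With each library centred on its median these were 3770 and 4373. Of the genes called in the read depth table, 2762 were called higher and 2155 lower here as well, 0 were called in the opposite direction and 3113 were called in the read depth table alone. Medians of 5 lists had the same sign as by read depth. They were 2.61 for recombination, 1.97 for the synaptonemal complex, 1.22 for BMP-type genes, -0.79 for Nodal signalling and -1.18 for pluripotency, against 0.06 for all autosomal genes. The median of the piRNA list, near 0 on both scales, went from -0.036 by read depth to 0.0071. The read depth values are compressed, so the sizes on the 2 scales cannot be set against each other.

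Per cell, the differences of the marker genes were as one-sided as by read depth, as for Stra8 (7.64), Mei1 (9.29), Nanos2 (-7.02) and Lefty1 (-7.61) on the log2 scale. The largest read depth differences that were not called per cell were those of Dnajc5g (1.05 by read depth, 2.08 per cell), Tdrd12 (-1.04 and -1.28), Rpl39l (-1.02 and -1.26), Dppa2 (-0.96 and -1.18), Sp9 (0.92 and 2.12) and Prss42 (0.89 and 1.52). They point the same way on both scales, so the calls differ and the directions do not. Spread in the cell number table was estimated as common to all genes at a given level, which is why its p-values are not printed.

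The sex difference of PGCs was also tested against that of soma of the same stage. After subtraction 3358 autosomal genes (27.2%) were called higher and 3625 (29.4%) lower, and in soma itself 2970 (24.1%) differed, 1619 of them higher and 1351 lower in females. The remainder was 4.28 ± 0.83 for Mei1, -5.66 ± 0.48 for Nanos2, -3.38 ± 0.38 for Nodal and -6.87 ± 0.40 for Pmaip1 (adjusted p = 0.00062, 6.8e-07, 6.8e-06 and 3.1e-08). For Stra8 it was 3.00 ± 1.18 (adjusted p = 0.043). Female soma held Stra8 reads (10.1, 40.8 and 0.254 CPM; sex difference in soma 3.22, adjusted p = 0.012), and the call held in 5 of 12 fits without 1 library (adjusted p up to 0.1, without Male PGC 2). Rec8 (remainder 0.52 ± 0.43, adjusted p = 0.32) and Sycp3 (-0.01 ± 0.87, adjusted p = 0.99) did not pass. Both were detected in female soma (37.6, 43.4 and 15.3 and 4.67, 48.3 and 1.40 CPM), highest in Female soma 2 as Dazl was. The part of germ cells left in the female soma gate was not tested.

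**Figure D5:**
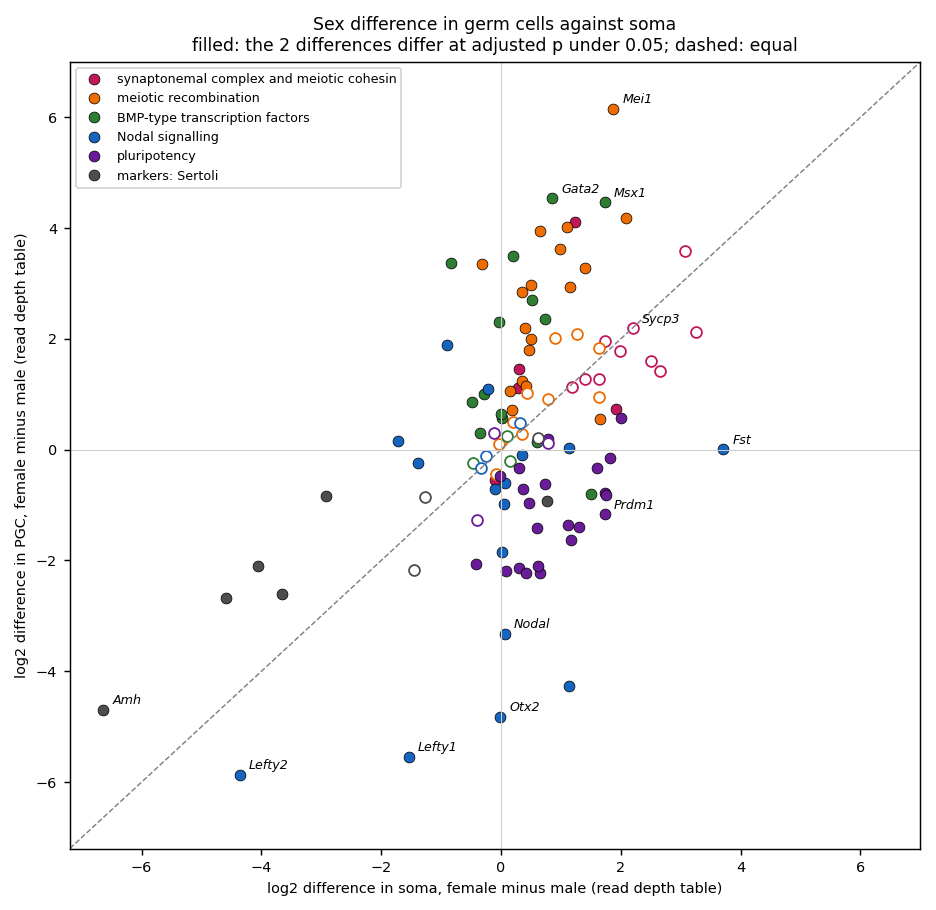
Log2 difference between the sexes in PGCs (vertical) against that in soma (horizontal), both female minus male in the read depth table, for the members of 6 lists. Filled points differ between PGCs and soma at an adjusted p under 0.05, and the dashed line marks equal differences: Gata2, Mei1, Nodal and Otx2 lie far from it, Sycp3 lies on it, and Amh is lower in females in both.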

How the data were processed

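Each table holds log2 values of 12845 genes in 12 libraries, 3 for each of 4 groups, and was deposited by the authors in a cell number and a read depth normalized version. Per the labels' protocols, spike-in RNA scaled to the number of cells was added before a stranded mRNA library kit. The submitters' processing notes name limma 3.28.14, edgeR 3.14.0, DESeq2 1.12.3, R 3.3.0, HTSeq 0.6.1p1, TopHat2 2.0.9 and Trim Galore 0.4.0, without roles. The cell number values equal log2 of reads plus 0.5 over a library constant, so reads were recovered as whole numbers (100% within 0.001 reads). The transform of the read depth values is not stated. Every gene had at least 5.07 CPM in 3 libraries, so genes low in all groups are absent.

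With limma 3.58.1 (R 4.3.3), 4 group means were fitted to all 12 libraries, with a mean-variance trend, and p-values of all 12845 genes were adjusted by Benjamini-Hochberg (threshold 0.05). Soma libraries thus enter the SE. In the cell number fit the prior degrees of freedom were infinite, so only its differences and calls are given. Voom was run on the reads, and leave-one-out, PGC-only, replicate block, filtered and median-centred fits were alternatives. Scripts were tested on simulated data. Whether replicates were separate litters is not stated, so p-values may measure technical spread only. Replicate libraries differed by more than counting noise (chi-square over its degrees of freedom, 5.43 to 30.4). Counting intervals cover counting error only.

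The members and lists were chosen with earlier results of these data known. Named by rule are all members of 4 lists (retinoic acid, BMP, Nodal, male programme), the 4 most abundant and 4 most changed of every other list, the markers, the 12 largest rises and falls called in both tables without overlap, and 6 genes whose calls differ between tables. Chosen after their values were seen were Six6os1, Terb2, Terb1, Iho1, Top6bl, Bbc3, Ccne1, Cdc6, Cdk1, Cdkn2c, Dmc1, Dusp6, Exd1, Fos, Hfm1, Hormad1, Hormad2, Mcm3, Mcm4, Mei4, Meiob, Mki67, Mlh3, Mnd1, Msh4, Msh5, Mybl1, Piwil1, Prdm1, Prdm14, Psmc3ip, Rrm2, Sox2, Spata22, Spo11, Spry1, Spry2, Spry4, Syce1, Syce2, Syce3, Sycp1, Sycp2, Tdrd7, Tet2, Tex12, Tfap2c, Trip13 and Utf1. Some genes are counted but not reported here. Positions are from GENCODE for GRCm38. Python 3.11.15, pandas 2.3.3, numpy 2.4.6, scipy 1.17.1 and matplotlib 3.10.9 were used.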

Additional observations from a re-analysis of the deposited data

Results flagged for a closer look

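The sex difference in PGCs differed from that in soma, by limma's test of the difference itself, in 3358 autosomal genes upward and in 3625 downward. For 18 of the named genes the 2 sex differences were called in opposite directions, and 7 of those with the largest difference between them are given here as PGC minus soma on the log2 scale. Downward were Fbxo41 (-5.43), Krt17 (-5.40) and Tdrd5 (-3.40), which were lower in female than in male PGCs and higher in female than in male soma. Upward were Cyp26b1 (4.79), Fgfr3 (4.35), Msx2 (4.20) and Pcsk6 (2.80), which were higher in female PGCs and lower in female soma. Over all autosomal genes, 449 (3.64%) had the second pattern and 374 (3.03%) the first. Groups of 3 libraries are too small for a test of single outlying libraries.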

How the results depend on the processing

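By read depth, 1195 genes were higher and 851 lower at a log2 difference of at least 1, and after subtraction of soma 1352 and 1133. In the cell number table, 1889 were higher without the lowest 25% of genes, which leaves fewer genes to test. There 3532 were lower with the PGC libraries alone and 4373 with libraries centred on their medians, where 3770 were higher, so that the share of calls that were higher moved from 56.6% to 46.3%; the cause was not tested. Leaving out 1 library gave 3578 to 4026 higher and 3755 to 4171 lower by read depth, 2236 to 2618 and 1670 to 1920 by cell number (PGC libraries only), 3073 to 3364 and 3308 to 3603 after subtraction of soma, and 0.00713 to 0.1323 for the difference of library medians, lowest without Female PGC 1. With the mean in place of the median that difference was 0.188 (p = 0.1 by the exact permutation test). The other alternatives left the counts within a factor of 1.5.

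Whether replicate numbers pair the samples is not stated. Deviations of same-numbered female and male PGC libraries correlated at 0.006, -0.216 and -0.148 by read depth. Those of same-numbered PGC and soma libraries correlated at -0.0715, 0.059 and 0.071 in females and at 0.016, 0.038 and 0.051 in males. Deviations within a group sum to 0, so these few values cannot decide whether the samples were paired. With replicate number as a block, 3876 and 4014 genes were called by read depth, 3010 and 2372 by cell number and 3316 and 3553 after subtraction of soma, and the difference of library medians stayed at 0.0721. Of 195 named genes, 167 kept direction and call in the cell number table, 22 lost and 6 gained a call; with voom these were 180, 4 and 11, and with median centring 192, 2 and 1. No named gene changed direction among called values. Depth limits Otx2 and Tdgf1, at 0 and 2 reads in females, to a bound and a counting interval.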
